A study of Mus musculus with 20 samples.

Results

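The 10 genes of bile acid synthesis and transport followed here were Cyp7a1, Cyp8b1, Cyp27a1, Cyp7b1, Baat, Nr1h4, Nr0b2, Abcb11, Slc10a1 and Slco1a1. They were chosen by symbol, and all 10 were found among the 48440 genes of the count table, each as 1 row. Liver was the tissue of interest and gonadal fat the reference tissue. RNA had been sequenced from both tissues of C57BL/6 mice in 4 groups, KO liver, WT liver, KO fat and WT fat, with 5 libraries in each and 20 in all. KO mice carry the genotype label AdEpsKO, in a series on mice that lack protein kinase C epsilon (encoded by Prkce), and WT mice are wild type. The sources used here do not expand that label, so the tissue or cell type in which Prkce was deleted is not known, and their age and sex are not given either. Shared by all 4 groups, the WT controls included, were a diet high in fat for 1 week and a 6 h fast before the tissues were taken.

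Bile acids are made from cholesterol in hepatocytes by a classic pathway, which Cyp7a1 starts, and an alternative pathway, which Cyp27a1 and Cyp7b1 serve. They are conjugated to an amino acid, pumped into bile, taken up again in the intestine and returned to the liver in portal blood. In hepatocytes they bind the nuclear receptor FXR, which induces the repressor SHP and the export pump BSEP, and SHP lowers transcription of Cyp7a1 and Cyp8b1, which closes a feedback loop.

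The libraries held 13836370 to 20784145 expected counts in liver and 12880933 to 17276907 in fat. Levels are given as counts per 1000000 counts (CPM), scaled by TMM within a tissue, so liver and fat levels do not share 1 scaling. Prkce had 50.4 ± 14.4 CPM in WT fat and 31 ± 5.56 CPM in KO fat (SD, n = 5 each). All KO fat libraries were below all WT fat libraries, but narrowly, with the highest KO library at 35 CPM and the lowest WT library at 35.1 CPM. The KO to WT ratio in fat was 0.615 (95% interval 0.45 to 0.841), and in liver 0.781 (0.595 to 1.02). By edgeR's quasi-likelihood test Prkce did not pass the adjusted threshold in fat (adjusted p = 0.687) or in liver (adjusted p = 0.417). Hepatocyte markers summed to 138000 to 194000 CPM in the livers and adipocyte markers to 18800 to 35300 CPM in the fat libraries, as their labels give them. WT livers 2 and 4 held the skeletal muscle transcript Acta1 at 41.9 and 77.6 CPM, and the other livers did not exceed 7.75 CPM. WT livers 4 and 5 held the adipocyte transcript Adipoq at 4.32 and 4.44 CPM, and the others did not exceed 1.1 CPM. WT fat 4 and KO fat 3 held albumin transcript at 0.457% and 0.468% of the mean liver level, against at most 0.0722% in the other fat libraries. Urothelium and genital tract markers summed to 1740 CPM in KO fat 2, against a KO fat median of 19.7 CPM and at most 31.5 CPM in WT fat. Skeletal muscle markers summed to 873 CPM in WT fat 2 and 568 CPM in KO fat 2, where the medians were 212 CPM in WT and 76.6 CPM in KO fat.

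Promoters of Abcb11, Nr0b2 and Cyp8b1 are shown because these genes belong to the FXR and SHP loop and their means differed between KO and WT liver in the values that follow. A promoter was found for 7 of the 10 members in the RefSeq table (GRCm38.p6), and the 3 without an entry were Cyp7a1, Cyp7b1 and Baat. The 250 bases before the start of each gene are printed 5′ to 3′ on the strand of the gene. Capitals mark, in Abcb11, the places that match an inverted repeat of AGGTCA spaced by 1 base (the type of element that FXR with RXR is known to bind) with at most 2 letters changed, and in Nr0b2 and Cyp8b1 the letters TATAAA, the core of a classic promoter box. The windows lie at chr2:69342617-69342866 on the minus strand (Abcb11), chr4:133553126-133553375 on the plus strand (Nr0b2) and chr9:121916306-121916555 on the minus strand (Cyp8b1).
Abcb11: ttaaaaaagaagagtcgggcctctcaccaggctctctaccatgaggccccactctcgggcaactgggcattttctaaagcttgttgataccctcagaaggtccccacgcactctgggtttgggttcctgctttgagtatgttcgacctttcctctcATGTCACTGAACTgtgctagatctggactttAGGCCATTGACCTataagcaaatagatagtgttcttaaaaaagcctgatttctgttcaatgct
Nr0b2: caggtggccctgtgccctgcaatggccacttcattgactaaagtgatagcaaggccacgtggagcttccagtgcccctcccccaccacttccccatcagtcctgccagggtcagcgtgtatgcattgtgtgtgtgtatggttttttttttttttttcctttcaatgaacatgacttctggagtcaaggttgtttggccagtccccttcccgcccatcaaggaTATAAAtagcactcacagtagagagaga
Cyp8b1: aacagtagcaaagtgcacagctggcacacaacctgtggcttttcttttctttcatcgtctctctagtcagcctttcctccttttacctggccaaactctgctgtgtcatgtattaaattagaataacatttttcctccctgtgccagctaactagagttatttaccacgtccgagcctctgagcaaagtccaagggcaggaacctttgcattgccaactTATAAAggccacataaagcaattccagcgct
In Abcb11 the inverted repeat was found with 1 letter changed at -63 to -51 and with 2 letters changed at -94 to -82, counted back from the start site. Of all 32851 promoters of that length, 0.959% held the repeat with at most 2 letters changed, searched on both strands, and 0.00609% held it exactly. The other members matched held no copy with at most 2 letters changed within these 250 bases, and bases farther upstream were not searched. The single element AGGTCA, which lies within the repeat, was also found in Slco1a1, Nr1h4 and the second listed promoter of Slc10a1, and 14% of all promoters held it. TATAAA was found at -28 to -23 in Nr0b2, at -31 to -26 in Cyp8b1 and also in Slco1a1 and Slc10a1, against 12.4% of all promoters. Neither the direct repeat of AGGTCA spaced by 1 base (0.0335% of all promoters) nor CAAGGTCA (1.33%) was found in any of the members matched. These are matches of letters, and no binding was measured.

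The first question was whether the livers of KO and WT mice differed in these genes. In KO liver, the classic-pathway enzymes Cyp7a1 and Cyp8b1 and the export pump gene Abcb11 had higher means than in WT liver, and the repressor gene Nr0b2 had a lower mean, but none of the 10 members passed edgeR's quasi-likelihood test after adjustment over all genes. Among all 13298 genes tested 1 was called (0.00752%), the antisense gene Hectd2os (named for this count after its value was seen). Without adjustment, 3 of the 10 members had a p under 0.05, against 13.1% of all genes tested. They were Cyp7a1 and Abcb11, with the higher mean in KO (as 6.56% of all genes at that p), and Nr0b2, with the lower (also 6.56%). With DESeq2 1 of the 10 members was called, Abcb11, against 1.05% of 13037 genes, and with limma-voom 0 of the 10, against 0.0226%. In 0 of the 10 members were the KO and WT libraries fully separated, against 2.79% of all genes. The mean was higher in KO for 6 members and lower for 4, with a median log2 difference (KO minus WT) of 0.2 over the members and 0 over all genes tested. In bulk tissue, fewer cells of a type and less RNA per cell cannot be told apart.

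Cyp7a1 encodes cholesterol 7α-hydroxylase, the rate-limiting enzyme of the classic pathway (ENSMUSG00000028240, chromosome 4, 6265612 to 6275633, GRCm38). It had 573, 262, 311, 381 and 261 CPM in WT livers 1 to 5 and 575, 712, 404, 471 and 1050 CPM in KO livers 1 to 5. Of the KO livers, all 5 were above 4 of the WT livers. WT liver 1 lay level with KO liver 1 and above KO livers 3 and 4. The means were 358 ± 130 CPM in WT and 642 ± 256 CPM in KO (SD, n = 5 each), a fitted ratio of 1.8 (95% interval 1.14 to 2.83). By edgeR the unadjusted p was 0.0165 and the adjusted p 0.286. KO liver 5 carried part of that ratio: without it the log2 difference was 0.6 in place of 0.85. Leaving out each library in turn gave 0.6 to 1.08.

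Cyp8b1 encodes sterol 12α-hydroxylase, which sets the share of cholic acid among the bile acids (ENSMUSG00000050445, chromosome 9, 121914356 to 121916305). Its levels were 141, 58.9, 86, 56 and 79.5 CPM in WT livers 1 to 5 and 195, 185, 57, 143 and 142 CPM in KO livers 1 to 5. KO liver 3 lay among the WT livers and WT liver 1 just under the other KO livers. The means were 84.2 ± 34.1 and 145 ± 54.6 CPM, a KO to WT ratio of 1.72 (0.979 to 3.01; edgeR adjusted p = 0.39). KO livers 1 and 2 were highest for Cyp8b1. KO liver 5, which was highest for Cyp7a1, was nearly level with KO liver 4, at 142 against 143 CPM.

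The alternative-pathway genes differed less between KO and WT. Cyp27a1, the mitochondrial sterol 27-hydroxylase, had 347 ± 53.8 CPM in WT and 303 ± 40.4 CPM in KO liver (ratio 0.872, 0.723 to 1.05; edgeR adjusted p = 0.515). Its WT livers ranged from 287 to 392 CPM and its KO livers from 250 to 359 CPM. Cyp7b1, the oxysterol 7α-hydroxylase that acts after Cyp27a1, had 18.3 ± 2.38 CPM in WT and 21.7 ± 6.19 CPM in KO liver (ratio 1.18, 0.917 to 1.53; edgeR adjusted p = 0.555). Of the KO livers, 2 lay below every WT liver for Cyp7b1 and 3 above, and KO liver 5 was again highest, at 30.4 CPM. Within a liver, the ratio of Cyp7a1 to Cyp27a1 (CPM per kilobase, where scaling of the library cancels) was 1.03, 0.355, 0.564, 0.507 and 0.354 in WT livers 1 to 5 and 0.835, 1.17, 0.744, 0.981 and 1.77 in KO livers 1 to 5. Of the WT livers, 4 had a lower ratio than each KO liver, and WT liver 1 lay among the KO livers. This ratio was chosen after its values were seen and is a description only.

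Baat, which encodes the enzyme that joins bile acids to taurine or glycine, had 214 ± 28 CPM in WT and 249 ± 37.6 CPM in KO liver (ratio 1.16, 0.971 to 1.39; edgeR adjusted p = 0.456). The WT livers ranged from 177 to 254 CPM and the KO livers from 219 to 312 CPM.

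**Figure D1:**
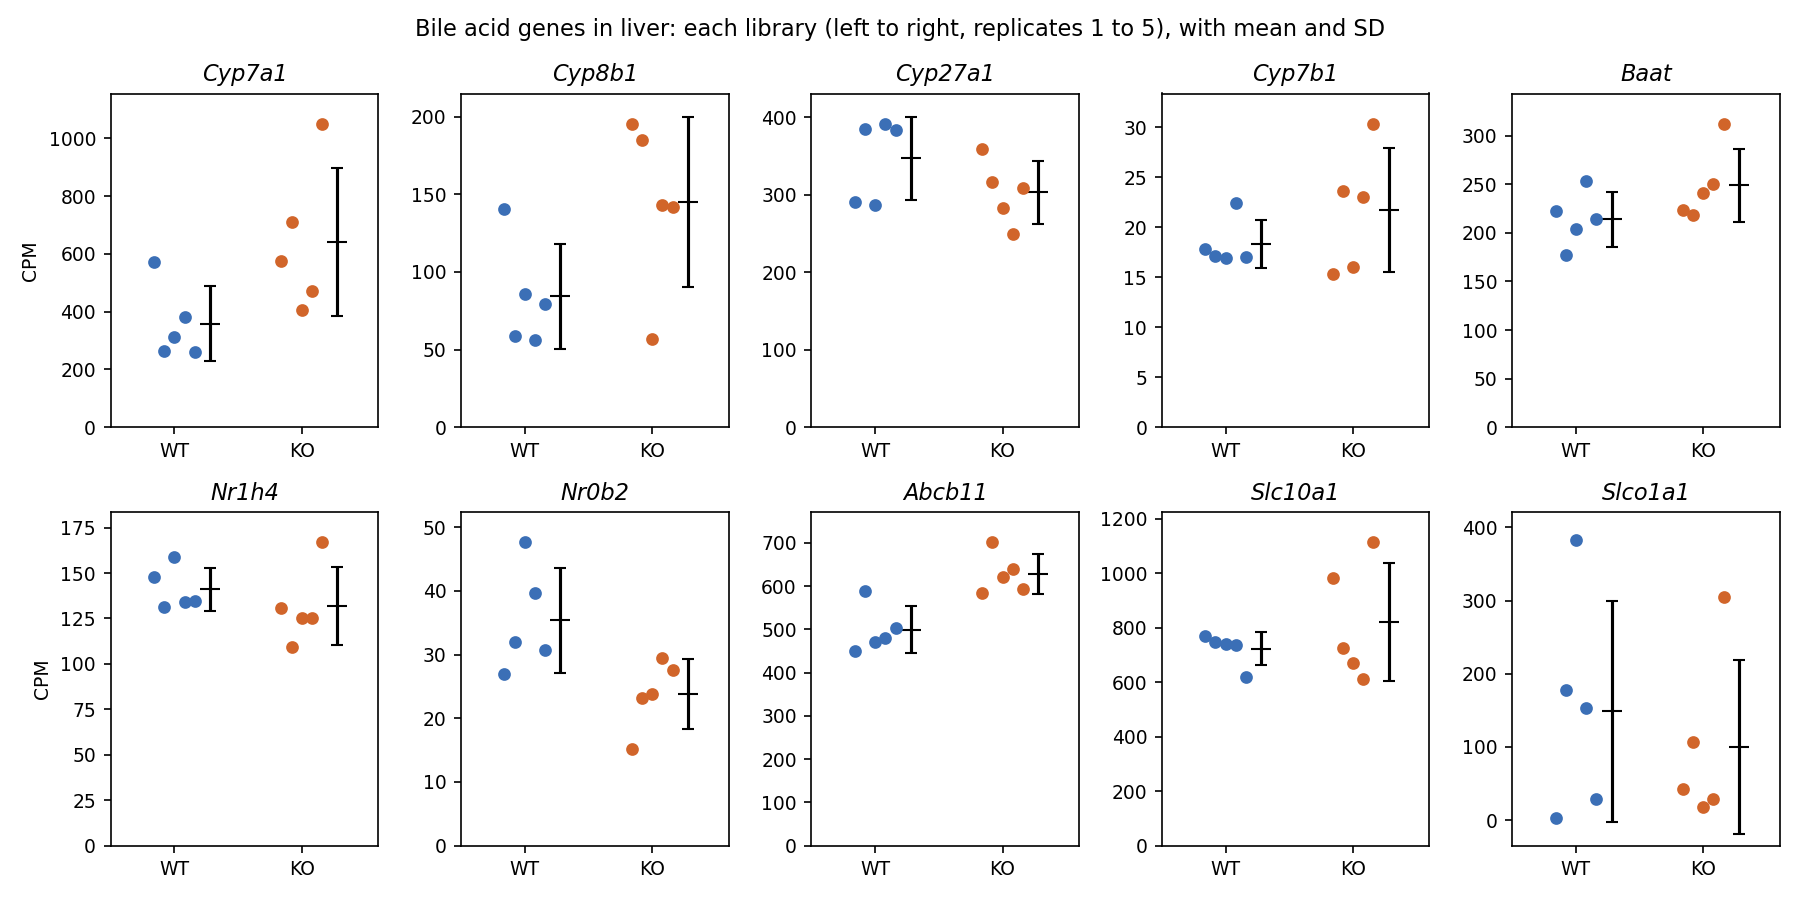
Levels of the 10 genes in each WT and KO liver library, in CPM on linear axes that start at 0 (Slco1a1 slightly below 0 to show its error bar), with replicates 1 to 5 from left to right and bars for the mean and SD. Cyp7a1, Cyp8b1 and Abcb11 sit higher and Nr0b2 lower in most KO livers, with overlap in each, and Slco1a1 runs from 2.66 to 383 CPM within WT liver alone.

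Of the regulators, Nr0b2 had the larger difference in means and Nr1h4 the smaller, and both overlapped between KO and WT. Nr0b2 encodes SHP, the repressor that FXR induces (ENSMUSG00000037583, chromosome 4, 133553376 to 133556536). It had 27, 32, 47.6, 39.7 and 30.8 CPM in WT livers 1 to 5 and 15.2, 23.1, 23.8, 29.5 and 27.6 CPM in KO livers 1 to 5. KO livers 4 and 5 lay within the low end of the WT livers, and the other 3 KO livers were below all of them. The means were 35.4 ± 8.26 and 23.8 ± 5.51 CPM, a KO to WT ratio of 0.673 (0.51 to 0.888). By edgeR the unadjusted p was 0.00881 and the adjusted p 0.254. Nr1h4 encodes FXR, the bile acid receptor itself (ENSMUSG00000047638, chromosome 10, 89454234 to 89533585). Its level was 141 ± 11.7 CPM in WT and 132 ± 21.4 CPM in KO liver, a ratio of 0.93 (0.789 to 1.1; edgeR adjusted p = 0.713).

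Abcb11 encodes BSEP, the pump that exports bile salts across the canalicular membrane (ENSMUSG00000027048, chromosome 2, 69238282 to 69342616), and it had the smallest p of the members in liver. The WT livers 1 to 5 had 449, 590, 472, 480 and 503 CPM and the KO livers 1 to 5 had 584, 701, 622, 640 and 593 CPM. WT liver 2, at 590 CPM, was the single WT library above the lowest KO library, KO liver 1 at 584 CPM. The means were 499 ± 54.4 and 628 ± 46.6 CPM, a ratio of 1.26 (1.08 to 1.47). By edgeR the unadjusted p was 0.00545 and the adjusted p 0.235, and DESeq2 gave an adjusted p of 0.0468. The antisense gene Gm13613 and the pseudogene Gm13614 lie on the opposite strand within Abcb11, and since the strand setting of the counting is not given, reads from them cannot be told apart from those of Abcb11 here.

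Of the uptake carriers, Slc10a1 varied far less from liver to liver than Slco1a1. Slc10a1 encodes NTCP, the sodium-dependent carrier that takes conjugated bile acids from blood into hepatocytes. It had 723 ± 60.1 CPM in WT and 822 ± 216 CPM in KO liver (ratio 1.14, 0.903 to 1.43; edgeR adjusted p = 0.626). KO livers 1 and 5, at 984 and 1114 CPM, were above all WT livers, and KO liver 4, at 613 CPM, was below all of them. Slco1a1 encodes OATP1A1, a sodium-independent organic anion carrier of the sinusoidal membrane. It had 2.66, 178, 383, 153 and 29.1 CPM in WT livers 1 to 5 and 42.7, 106, 18.3, 29 and 305 CPM in KO livers 1 to 5. The highest WT liver thus held 144 times the level of the lowest, while each other member had at most a 3.43-fold range (Cyp8b1 in KO) within WT or KO liver. The KO to WT ratio of Slco1a1, 0.673, had an interval from 0.103 to 4.39 (edgeR adjusted p = 0.87), and its log2 difference of -0.57 became 0.14 without WT liver 3 and -1.6 without KO liver 5.

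Slco1a1 is known as a gene with higher expression in male than in female mouse liver. The sex of the mice is not given in the labels. Xist, which is transcribed from the inactive X chromosome, had 615 to 1680 CPM in the 10 livers. The Y-linked genes Ddx3y, Kdm5d, Uty and Eif2s3y did not exceed 0.116 CPM in any of them. By these genes each liver reads as female. The summed level of the 10 male-predominant liver genes listed was 1760 to 3210 CPM in WT and 2060 to 3970 CPM in KO liver. Mup3 made up most of that sum, with 1570 to 2960 CPM in WT and 1910 to 3760 CPM in KO liver. None of the others exceeded 124 CPM in any liver, and Cyp4a12a had at most 0.779 CPM. Because Mup3 dominates, the sum hides ranges that differed by gene. Within WT liver the highest library held 34.4 times the lowest for Hsd3b5 and 15.1 times for Selenbp2. For Mup3 it was 1.88 times and for Gstp1 1.14 times. Hsd3b5 was low, with at most 12.4 CPM. The 10 female-predominant genes, Xist included, summed to 3490 to 4210 CPM in WT and 3420 to 5240 CPM in KO liver. Of the male-predominant genes 8 were tested, with 2 higher and 6 lower in KO, and of the female-predominant genes 10, with 7 higher and 3 lower. None of them was called by edgeR. At an unadjusted edgeR p under 0.05, 1 male-predominant gene was lower and 3 female-predominant genes were higher in KO. Of all genes tested 6.56% were lower and 6.56% higher at that p. Their part in the spread of Slco1a1 was not tested.

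KO liver 5 was the highest of the 10 livers for 5 members (Cyp7a1, Cyp7b1, Nr1h4, Slc10a1 and Baat) and the lowest for 0. Without it the log2 difference was 0.09 in place of 0.24 for Cyp7b1, 0.05 in place of 0.18 for Slc10a1 and 0.12 in place of 0.22 for Baat. For Cyp8b1 it was 0.78 with and without this library, for Abcb11 0.35 in place of 0.33, and for Nr0b2 -0.63 in place of -0.57. Abcb11, Nr0b2 and Cyp8b1 therefore did not lose their size with this library, while the other differences in favour of KO shrank. Without WT livers 2 and 4 (skeletal muscle transcripts) the differences were 0.75 for Cyp7a1, 0.5 for Cyp8b1, -0.56 for Nr0b2 and 0.4 for Abcb11, where the fit with all libraries gave 0.85, 0.78, -0.57 and 0.33. Without WT livers 4 and 5 (adipocyte transcripts) they were 0.77, 0.62, -0.56 and 0.34.

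Of the Kupffer cell and macrophage markers, 9 of 9 had lower means in KO liver and 8 had an unadjusted p under 0.05, where 6.56% of all genes tested were lower at that p, and none was called by edgeR. Their summed level was 444 to 885 CPM in WT and 366 to 529 CPM in KO livers, and none of the 9 was at 0 in all libraries of a group. Cd68, a lysosomal glycoprotein of macrophages, had a KO to WT ratio of 0.607 and C1qb, a complement component, of 0.626. Hepatocyte markers had lower means in KO for 11 of 12, with 5 at an unadjusted p under 0.05 (against the same 6.56%) and none called, and summed to 170000 to 194000 CPM in WT and 138000 to 167000 CPM in KO livers. Cholangiocyte markers summed to 29.5 to 66.8 CPM in WT and 34.4 to 67 CPM in KO livers. The part of these markers in the differences of the bile acid genes was not tested.

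None of the other genes of the pathway was called by edgeR at the adjusted threshold in liver. Of 18 other synthesis enzymes tested, 11 had higher and 7 lower means in KO liver, with a median log2 difference of 0.01. By edgeR 1 in each direction had an unadjusted p under 0.05, as had 6.56% of all genes in each direction. Akr1d1, the 5β-reductase of the steroid ring, had 270 ± 57.5 CPM in WT and 376 ± 53.1 CPM in KO liver (ratio 1.39, 1.12 to 1.73; edgeR adjusted p = 0.237). Acot8, a peroxisomal thioesterase, had 11.5 ± 1.15 and 9.4 ± 0.881 CPM, and its KO libraries were all below its WT libraries (ratio 0.821; edgeR adjusted p = 0.313). The ratios of Abcd3 and Akr1c6 were 1.14 and 1.1.

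Of 16 other bile acid and biliary lipid transporters tested, 10 had higher and 6 lower means, with a median log2 difference of 0.09. By edgeR 1 was higher at an unadjusted p under 0.05, as were 6.56% of all genes. That gene was Slc10a5, an orphan member of the NTCP family, with 84.5 ± 12.5 and 103 ± 12 CPM (ratio 1.22; edgeR adjusted p = 0.322). Of 15 other sensors and regulators tested, 9 had higher and 6 lower means, with a median log2 difference of 0.08. Nr5a2 encodes LRH-1, a nuclear receptor that drives Cyp7a1 and Cyp8b1 and that SHP represses. Its level was 72.9 ± 7.19 CPM in WT and 89.2 ± 4.25 CPM in KO liver, and the highest WT library, at 79 CPM, was below the lowest KO library, at 84.5 CPM (ratio 1.22, 1.07 to 1.39). By edgeR its unadjusted p was 0.00483 and its adjusted p 0.235. Nr1i2, the pregnane X receptor, had a ratio of 0.782 (0.631 to 0.969; edgeR adjusted p = 0.331), Fgfr4, the receptor for the intestinal hormone FGF15, of 0.866, and Rxra, the partner of FXR, of 0.873. Of the 8 conjugation and detoxification genes tested, 6 had higher and 2 lower means, and Sult2a8, a bile acid sulfotransferase, had a ratio of 1.35 (1.02 to 1.78; edgeR adjusted p = 0.347). Cyp3a11 had a ratio of 1.24, Cyp2b10 of 2.39 (0.657 to 8.71) and Ugt2b5 of 1.12.

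**Figure D2:**
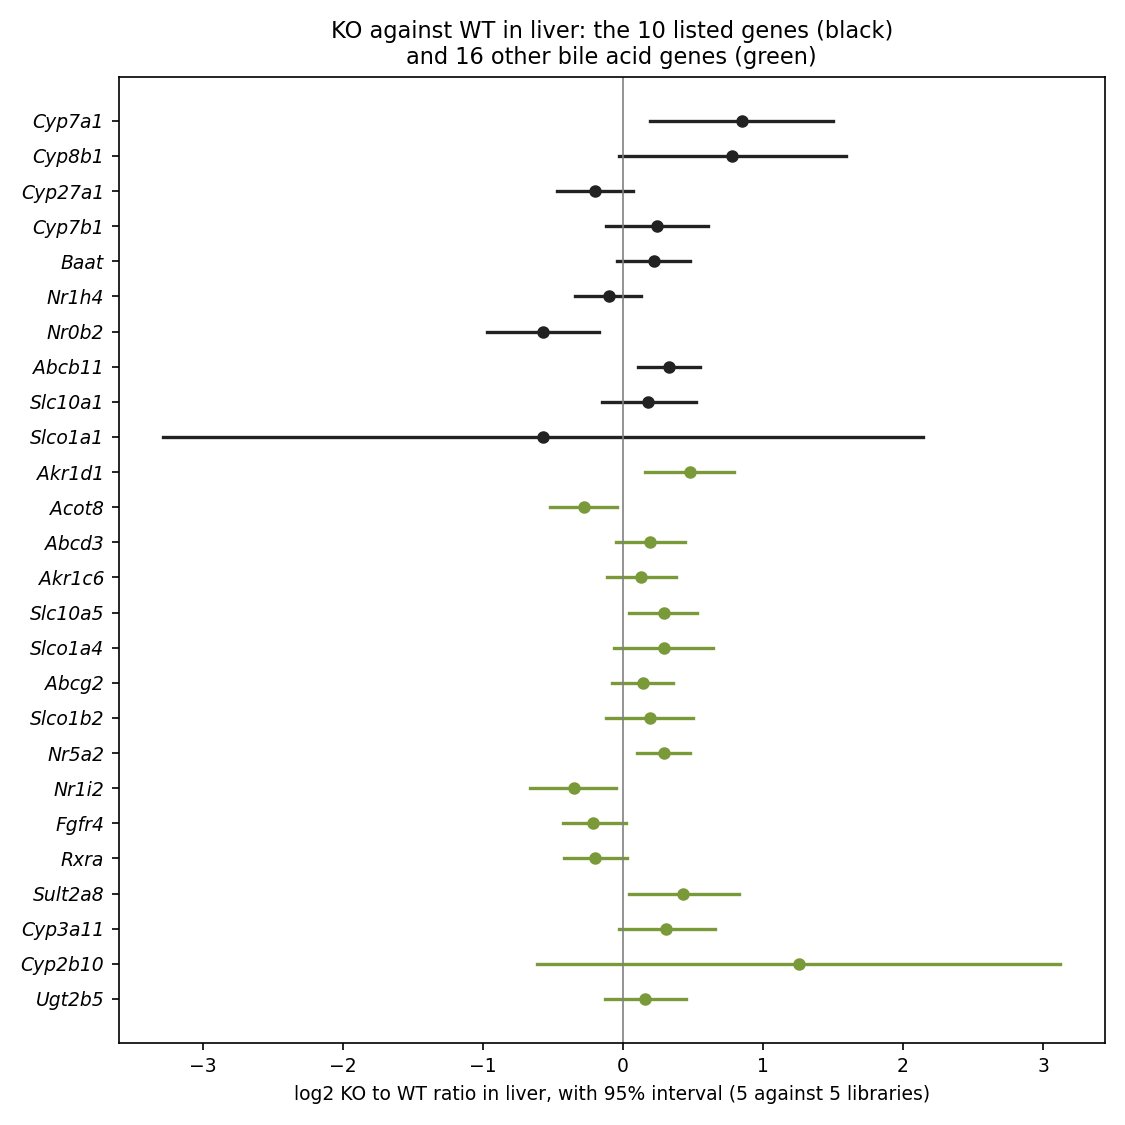
Log2 ratio of KO to WT liver with its 95% interval from edgeR (5 against 5 libraries), for the 10 members (black) and 16 other bile acid genes named by their p (green), 4 from each list. Of the members, Cyp7a1, Nr0b2 and Abcb11 have intervals on one side of 0 before adjustment for the number of genes tested. Several green genes do too, Akr1d1, Nr5a2, Nr1i2 and Sult2a8 included. The interval of Slco1a1 is the widest of the members, from -3.28 to 2.14.

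The next question was whether members moved together from liver to liver. Of 6 pairs examined over the 10 livers (log2 CPM, two-sided permutation tests of 100000 resamples, Benjamini-Hochberg over the 6 pairs), none passed the adjusted threshold. Cyp7a1 and Cyp8b1 had a Pearson r of 0.73 (permutation p = 0.0176, adjusted 0.105) and a Spearman rho of 0.7 (permutation p = 0.0306, adjusted 0.0919). With each gene centred on the mean of its genotype the r was 0.59, and without the 2 livers farthest from the median of Cyp7a1 it was 0.83. Nr0b2 and Cyp7a1 had an r of -0.49 (permutation p = 0.15, adjusted 0.181) and a rho of -0.71 (permutation p = 0.0272, adjusted 0.0919). That relation did not hold within the genotypes, with an r of -0.07 after centring, and without the 2 livers farthest from the median of Nr0b2 the r was -0.48. Nr0b2 and Cyp8b1 had an r of -0.59 (permutation p = 0.0718, adjusted 0.144) and a rho of -0.61 (permutation p = 0.0688, adjusted 0.138), with -0.35 after centring and -0.52 without 2 livers. Nr0b2 and Abcb11 had an r of -0.53 (permutation p = 0.115, adjusted 0.172) and a rho of -0.46 (permutation p = 0.19, adjusted 0.229), and the r became 0.08 after centring and -0.56 without 2 livers. Cyp7a1 and Cyp7b1 had an r of 0.66 (permutation p = 0.0481, adjusted 0.144) and a rho of 0.46 (permutation p = 0.19, adjusted 0.229), with 0.61 after centring. This pair rests on the outer livers, since the r was 0.31 without the 2 farthest from the median of Cyp7a1. Cyp7b1 and Slco1a1 had an r of 0.37 (permutation p = 0.278, adjusted 0.278) and a rho of 0.19 (permutation p = 0.609, adjusted 0.609), with 0.4 after centring and 0.07 without 2 livers.

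**Figure D3:**
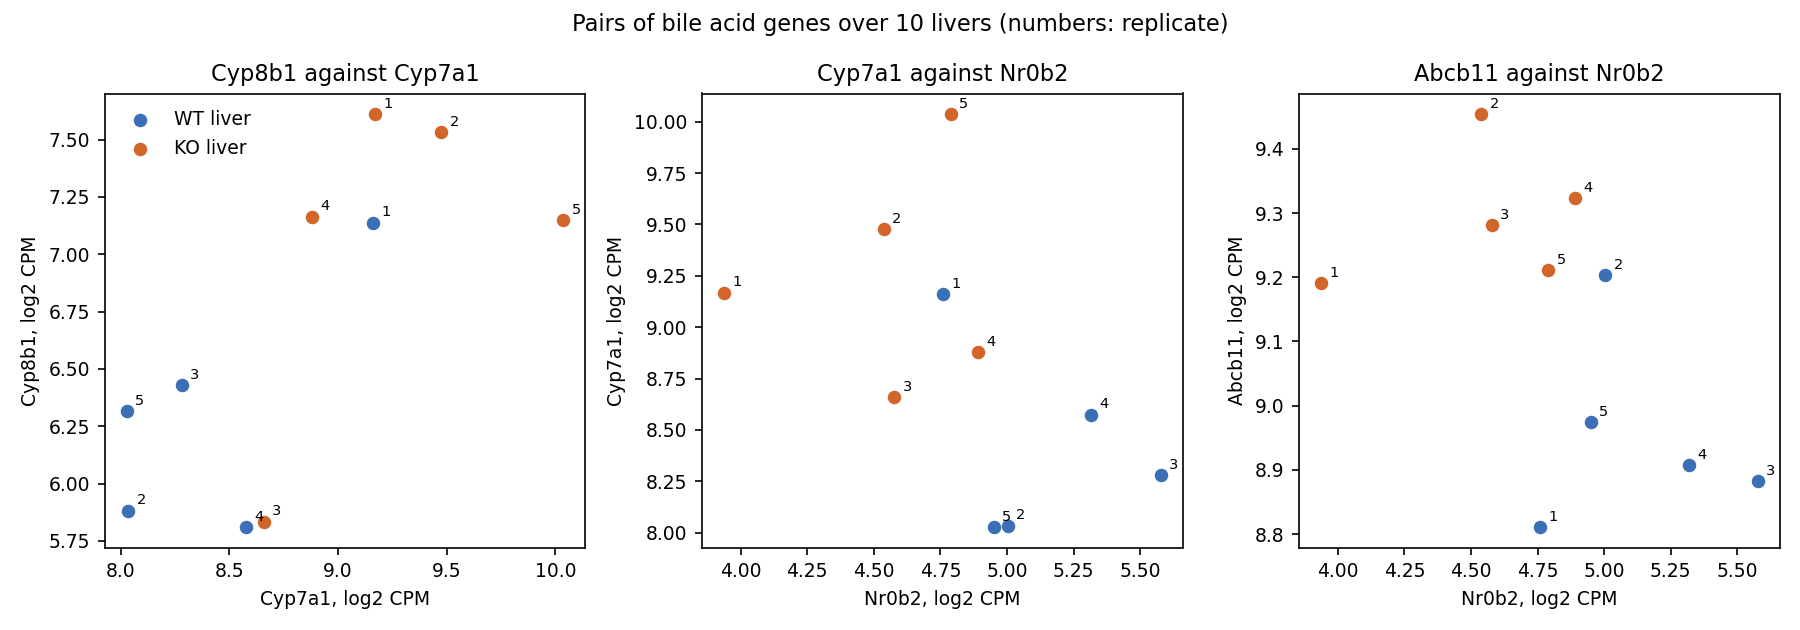
Log2 CPM of 3 pairs of genes in the 10 livers, WT in blue and KO in orange, with the replicate number beside each point. Cyp8b1 and Cyp7a1 run in the same direction (r = 0.73), while the falling trends of Cyp7a1 and Abcb11 against Nr0b2 lie between the genotypes, with an r of -0.07 and 0.08 once each genotype is centred.

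Among 12567 genes whose mean level reached 1 CPM, those most like Cyp7a1 over the 10 livers were Usp8, with an r of 0.94, and Smim19, Zfp111, 2810414N06Rik and Cmbl, each with 0.93. Most like Nr0b2 were Lpl, which encodes lipoprotein lipase (r = 0.97), Clic5 (0.95), C8a, a complement component (0.91), and Ift57 and Rnf225 (0.89 each). Lpl had means of 42.9 CPM in WT and 26 CPM in KO liver. These are the highest of many correlations and include the difference between the genotypes, so they are a description only.

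Levels of different genes were compared per length, as CPM per kilobase of exons. In WT liver Slc10a1 was highest at 329, followed by Cyp27a1 at 160, Baat at 110, Abcb11 at 96.9, Cyp7a1 at 85.7 and Nr1h4 at 61.4. Cyp8b1 had 43.2, Nr0b2 31.3, Slco1a1 28.3 and Cyp7b1 8.44. The ranges of the 5 libraries separated Slc10a1 from Cyp27a1 and Cyp27a1 from Baat, and all further neighbours overlapped. In KO liver Cyp7a1 stood in place 2, at 154, with Cyp27a1 at 139, Baat at 128 and Abcb11 at 122, and the ranges of these 4 overlapped from one to the next. Cyp8b1, at 74.1, was above Nr1h4, at 57.1, in KO liver, and their ranges overlapped as well.

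In gonadal fat, 3 members had enough counts to be tested and 7 did not. Cyp27a1 was the member with the highest level in fat, with 42.2, 45.3, 44.6, 37.8 and 59.8 CPM in WT fat 1 to 5 and 38.7, 33.6, 50.4, 42.5 and 37.6 CPM in KO fat 1 to 5. The groups overlapped (ratio of KO to WT 0.883, 0.714 to 1.09; edgeR adjusted p = 0.784). Cyp7b1 had 2.32, 2.45, 20.9, 6.22 and 3.34 CPM in WT fat 1 to 5 and 2.03, 2.92, 5.8, 2.52 and 2.34 CPM in KO fat 1 to 5. WT fat 3 alone lifted the WT mean to 7.04 ± 7.89 CPM, against 3.12 ± 1.53 CPM in KO (ratio 0.445, 0.169 to 1.17; edgeR adjusted p = 0.693), and without it the log2 difference of -1.17 was -0.2. The Kupffer cell and macrophage list was also at its highest in these libraries, with a sum of 1240 CPM in WT fat 3 and 816 CPM in KO fat 3, against medians of 380 CPM in WT and 252 CPM in KO fat. Of that list, Cd68 had 246 CPM in WT fat 3, 201 CPM in KO fat 3 and 162 CPM in KO fat 4, where Cyp7b1 was at 2.52 CPM. In the remaining fat libraries Cd68 had at most 51 CPM. The part of these cells was not tested. Nr1h4 had 1.15 ± 0.572 CPM in WT and 0.987 ± 0.438 CPM in KO fat (ratio 0.856, 0.442 to 1.65; edgeR adjusted p = 0.932).

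By edgeR 0 of the 3 members were called between KO and WT fat, as was 0% of the 14707 genes tested, where 7.13% had an unadjusted p under 0.05 (0 of the 3 members) and DESeq2 called 0.0993% of 13094 genes (none of the members). The difference of the KO effect between fat and liver, tested as an interaction in all 20 libraries, was called for 0% of 15652 genes by edgeR, with 5.36% at an unadjusted p under 0.05 and 0.0129% called by DESeq2. Its log2 value (fat minus liver) was 0.01 for Cyp27a1 and -0.13 for Nr1h4, with edgeR adjusted p values of 1 and 0.994. For Cyp7b1 it was -1.42, and -0.46 without WT fat 3. By edgeR the unadjusted p of the former was 0.0488 and the adjusted p 0.903. The other 7 members had too few counts in fat for this difference to be read.

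For those 7 members, the highest level of any fat library was 4.68 CPM, for Cyp7a1 in WT fat 4. The fat libraries with albumin transcript, WT fat 4 and KO fat 3, had the highest level of their group for each of the 7, apart from Nr0b2 in KO fat. The shares of the mean liver level given next use CPM scaled within each tissue, which is not the scale of the fitted differences between liver and fat. In WT fat 4 the level, as a share of the mean liver level, was 1.31% for Cyp7a1, 1.29% for Cyp8b1, 1.63% for Nr0b2, 0.565% for Abcb11, 0.594% for Slc10a1, 0.902% for Slco1a1 and 1.02% for Baat, beside 0.457% for albumin. In KO fat 3 it was 0.354% for Cyp7a1, 1.37% for Cyp8b1, 0% for Nr0b2, 0.386% for Abcb11, 0.393% for Slc10a1, 0.586% for Slco1a1 and 0.678% for Baat, beside 0.468% for albumin. Cyp27a1, at 10.9% and 16.6%, and Cyp7b1, at 34% and 26.8%, were far above the share of albumin in the same libraries. Nr0b2 had counts in WT fat 4 and KO fat 1 alone, 9 and 2 in all.

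Liver was compared with fat in WT mice. By edgeR all 10 members were called higher in liver, where 35.9% of 14739 genes tested were called higher and 38.4% lower (74.3% in all), and the median log2 difference (liver minus fat) was 9.2 over the members and -0.04 over all genes tested. The 3 members with enough counts to be tested within fat differed by 2.29 for Cyp7b1 (95% interval 1.1 to 3.48; edgeR adjusted p = 0.00234), 3.84 for Cyp27a1 (3.47 to 4.21; adjusted p = 2.25e-09) and 7.83 for Nr1h4 (7.27 to 8.4; adjusted p = 2.91e-10). In CPM scaled within each tissue, WT fat 3, at 20.9 CPM of Cyp7b1, lay among the WT livers, which had 16.9 to 22.5 CPM. The fitted differences were scaled over both tissues, so this placement need not hold on their scale. Without WT fat 3 the fitted difference of Cyp7b1 was 3.25. For the other 7 the fitted value rested on few counts in fat and moved with WT fat 4: without it the value went from 9.37 to 12.82 for Cyp7a1 and from 10.4 to 12.53 for Abcb11. It likewise went from 10.44 to 13.23 for Slc10a1, from 9.7 to 11.85 for Slco1a1, from 9.41 to 11.05 for Baat and from 8.45 to 9.1 for Cyp8b1. Nr0b2, at 9.02 with all libraries, had 0 counts in the other 4 WT fat libraries, so no size can be given for it without WT fat 4. All 10 members were called without that library too, and DESeq2 called 7 of the 10 (75.3% of all genes it adjusted) and gave no adjusted p for Cyp7b1, Abcb11 and Slc10a1. Scaling moved these values as well: with library size alone in place of TMM the median of all genes was -0.97 and 17.5% of the called genes were higher in liver, against 48.3% with TMM and 34.9% with upper-quartile scaling. With library size alone Cyp7b1 differed by 1.33, Cyp27a1 by 2.9 and Nr1h4 by 6.91, and all 10 members were called higher in liver.

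**Figure D4:**
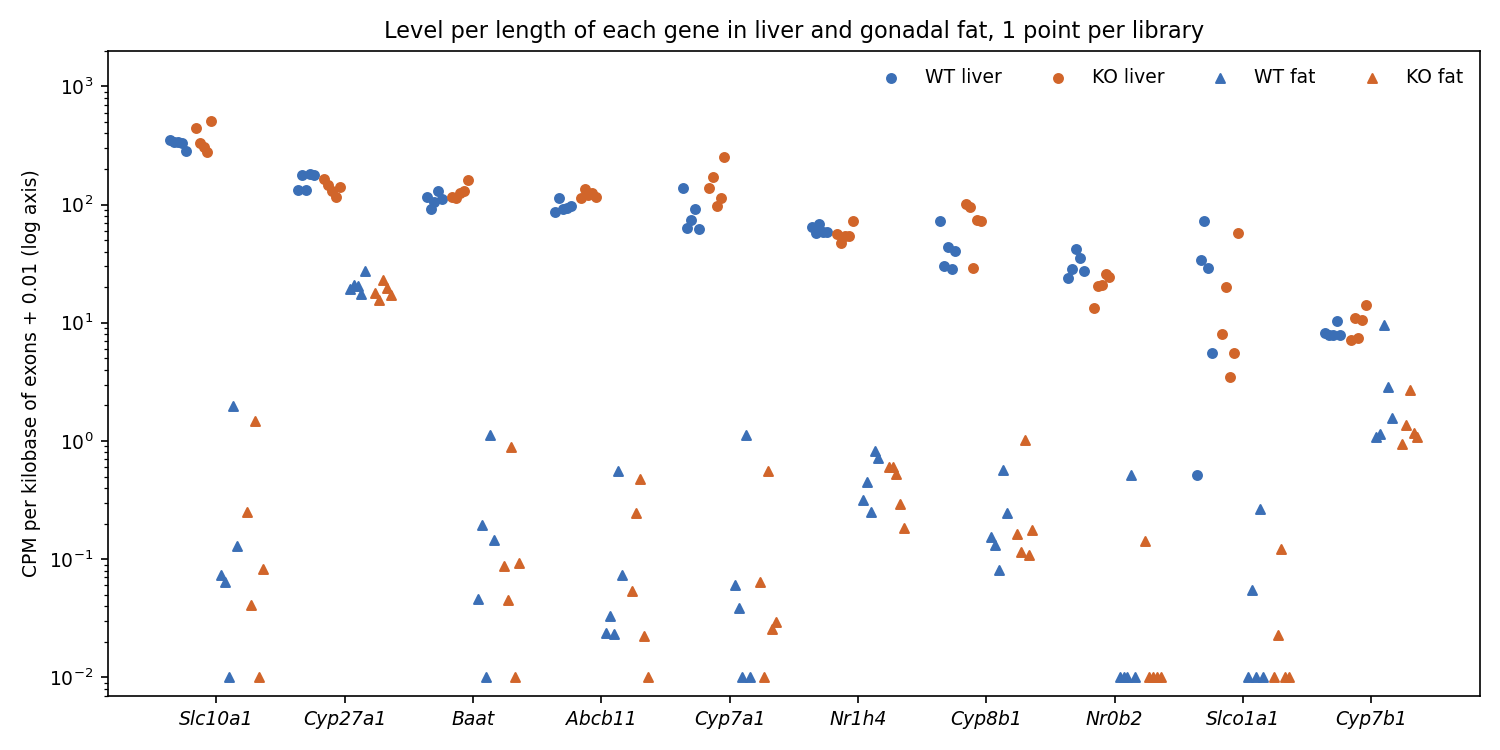
Level of each member in every library, in CPM per kilobase of exons plus 0.01 on a log axis, with circles for liver, triangles for fat, blue for WT and orange for KO, and genes ordered by their WT liver mean. Points at the bottom are libraries with no counts, and Cyp27a1 and Cyp7b1 are the genes with the smallest gap between liver and fat.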

How the data were processed

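Libraries from liver and gonadal fat were made with a kit for stranded mRNA sequencing, per the labels' protocols. The tools listed, in no known order, are RSEM 1.2.12, STAR 2.4.0d, DESeq2 and Trim Galore 0.2.8, and the genome build is GRCm38, per the submitters' processing notes. For the strand setting and the annotation release, the sources used here give nothing. Values deposited by the authors are expected counts per gene without normalization, of which 3.95% to 5.8% per library were not whole. They were rounded; 48058 of 48440 gene IDs matched a symbol. Genes were kept with filterByExpr (minimum count 10, minimum total 15), scaled by TMM and tested with edgeR 4.0.16 (quasi-likelihood; limma 3.58.1, R 4.3.3), with Benjamini-Hochberg adjustment over all genes tested and calls at an adjusted p under 0.05. Intervals of ratios are before that adjustment. Each tissue was fitted alone, the interaction with all 20 libraries, liver against fat in WT only. Log2 CPM for correlations used a prior count of 2. Lengths per kilobase are the union of a gene's exons in the reference annotation (GRCm38).

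Named by rule were all members, Prkce and the 5 genes most like Cyp7a1 and Nr0b2. Also by rule were up to 4 genes of each other list by the smallest p in liver (the most abundant for markers of another tissue). Acta1, Adipoq, Hectd2os, Mup3, Cyp4a12a, Hsd3b5, Selenbp2, Gstp1, the Y-linked genes and the genes overlapping Abcb11 were named after their values were seen. The members and lists were chosen with earlier results of these data known. Alternatives were other scalings, DESeq2 1.42.0, limma-voom, no filter, all libraries in 1 fit, a replicate block and leaving out each library. Some choices were made after seeing the data. They were leaving out WT livers with muscle or adipocyte transcripts, leaving out fat libraries with hepatocyte transcripts, and the inverted repeat with letters changed. The labels give 5 mice per group, and nothing marks 2 libraries as one sample: within each group, any 2 libraries were farther apart than counting error allows (chi-square over its degrees of freedom 14.7 or more). Depth limits the precision of genes with few counts. The steps were tested on simulated counts.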

Additional observations from a re-analysis of the deposited data

Results flagged for a closer look

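Single libraries that stood far from the other 4 of their group were found in 16 of the 40 sets of values (10 members in 4 groups), where chance flags about 1 in 20 independent sets; these sets share libraries and many rest on a few counts in fat, so that rate does not carry over to them. WT fat 4 was the high library in 6 of them, at 4.68 CPM for Cyp7a1, 0.577 CPM for Nr0b2, 2.82 CPM for Abcb11, 4.29 CPM for Slc10a1, 1.35 CPM for Slco1a1 and 2.18 CPM for Baat. KO fat 3 was the high library in another 6, at 2.28 CPM for Cyp7a1, 1.98 CPM for Cyp8b1, 5.8 CPM for Cyp7b1, 3.23 CPM for Slc10a1, 0.588 CPM for Slco1a1 and 1.69 CPM for Baat. Both held albumin transcript above the other fat libraries. Cyp7b1 was far above the rest in WT fat 3, at 20.9 CPM with the next library at 6.22 CPM, and Nr0b2 had counts in KO fat 1 alone, at 0.15 CPM. In liver there were 2 such values: Cyp7b1 in WT liver 4, at 22.5 CPM with the next library at 17.9 CPM, and Slc10a1 in WT liver 5, at 618 CPM with the next library at 736 CPM.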

How the results depend on the processing

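In the comparison of KO with WT liver, edgeR called 1 gene. The count was 137 with DESeq2, 15 with no filter on low counts, 3 with limma-voom, 2 with all 20 libraries in 1 fit, 3 without the WT livers that held skeletal muscle transcripts, 11 without those that held adipocyte transcripts, and 0 to 3 when single libraries were left out. Members called were 1 with DESeq2 (Abcb11) and 0 under each other setting. DESeq2 called 13 genes in fat and 2 for the interaction, where edgeR called 0 in each. DESeq2 gave no adjusted p for Cyp7b1, Abcb11 and Slc10a1 between liver and fat and called the other 7 members. Log2 values that changed sign were near 0 or had wide intervals: leaving out single libraries gave -1.6 to 0.14 for Slco1a1 in liver, -0.4 to 0.01 for Nr1h4 in fat, and for the interaction -0.08 to 0.13 for Cyp27a1 (-0.01 with no filter) and -0.31 to 0.11 for Nr1h4. The correlation of Nr0b2 with Abcb11 was 0.08 after centring. The causes were not tested.

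Replicate numbers are shared by the groups, but not every same-number pair deviated together, so the numbers were not taken as pairs. The correlations were -0.25 to 0.3 in liver, -0.2 to 0.48 in fat, 0 to 0.26 between tissues of WT and -0.01 to 0.07 between those of KO, with 1, 3, 2 and 0 of 5 pairs over 0.1, and libraries correlated best with their own number in 1, 2, 2 and 1 of 5 pairs. Low correlations between tissues cannot show that liver and fat of 1 number came from different mice. The main fits over both tissues may thus treat tissues of 1 mouse as independent. With the replicate number as a block, 3 genes were called in liver, 0 in fat, 0 for the interaction and 10537 between liver and fat in WT; members called were 0, 0, 0 and 10. Counts of the 7 members low in fat were too few for a KO effect there to be measured, and with 5 libraries a group the interval of Slco1a1 in liver spans both directions widely.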
